A study of Mus musculus with 12 samples.

Results

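The genes described here were 10 genes of fatty acid synthesis (Acly, Acaca, Acacb, Fasn, Scd1, Elovl5, Elovl6, Srebf1, Me1 and Acss2), chosen by name, and all 10 were found among the 10607 genes of the deposited table of ribosome profiling values from mouse liver. The mice were 3 wild types (WT) and 3 Mettl5 knockouts (KO), in 3 litters that each gave 1 mouse of either genotype. From every liver an input library (RNA-seq of the lysate) and a library of ribosome-protected fragments (RPFs, the stretches of mRNA that a ribosome shields from nuclease) were made, giving 12 libraries. The KO allele lacks exon 2 of Mettl5 in the whole body, since a floxed line made in C57bl/6 x 129S6 ES cells was bred to B6 and crossed with the CMV-cre line. WT mice were littermates of KO mice with the same number. Cycloheximide was present in the lysis buffer of all 12 libraries. Ages of the 6 mice are not given in the sources used here, which state a range for the whole study. Xist had 0 counts and 4 Y-linked genes were detected in all 6 input libraries, so the genotypes did not differ in sex by these genes.

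Input libraries held 8326325 to 11825643 counts over all genes, and RPF libraries 4623826 to 9184242 reads in the genes of the table. The genes of the table took 43.3% of the counts of the input library of KO mouse 1, against 25.3% to 31.0% in the other 5. Mettl5, which encodes an rRNA methyltransferase of the small ribosomal subunit, had between 12 and 21 counts in WT input libraries and between 5 and 13 in KO, and its RPF value was 47.8 to 58.4 in WT and 5.5 to 9.6 in KO. All 6 hepatocyte markers were detected in every input library. The adipocyte markers Adipoq, Plin1 and Lep had 0 counts in all 6, so fat tissue, which also expresses these enzymes, was not detectable by them at this depth. Fabp4, on the same list, was detected in every input library, with 10, 15 and 20 counts in WT and 31, 12 and 16 in KO. Cfd had 0 to 5 counts and Retn 0 or 1. The summed level of the 6 adipocyte markers was 1.09 to 2.16 CPM (input counts scaled to library totals) in WT and 1.20 to 3.04 in KO. Of the non-parenchymal marker lists, the 4 stellate cell markers (Lrat, Dcn, Col1a1 and Reln) had summed values that did not overlap, at 809 to 932 normalized reads in WT and 987 to 1083 in KO input, and 1589 to 1826 in WT and 2322 to 2563 in KO RPFs. The single markers were not alike. Lrat was not higher in KO, with input values of 139, 53.3 and 114 in WT and 105, 53.2 and 102 in KO. In input Dcn overlapped as well, while Reln and Col1a1 were higher in KO without overlap, as were 3.65% of all genes. In RPFs Lrat overlapped, while Dcn, Reln and Col1a1 were higher in KO without overlap, as were 6.97% of all genes. The part of these markers in the results was not tested. In whole liver, a difference in the number of cells of a type and a difference in RNA per cell cannot be told apart.

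Liver makes fatty acids from surplus carbohydrate in the fed state. Cytosolic acetyl-CoA comes from citrate through ATP citrate lyase (Acly) or from acetate through acetyl-CoA synthetase (Acss2), and malic enzyme (Me1) supplies NADPH. Acetyl-CoA carboxylases (Acaca, Acacb) make malonyl-CoA, fatty acid synthase (Fasn) builds palmitate from it, and the elongases Elovl6 and Elovl5 and the desaturase Scd1 lengthen and desaturate the products. Srebf1 encodes SREBP-1, a transcription factor activated by insulin signalling that drives most of these genes through sterol regulatory elements, which often lie near CCAAT boxes bound by NF-Y.

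Promoter windows are shown for Fasn, the central enzyme, for Srebf1, which encodes the factor itself, for Acss2, whose genotypes did not overlap in RPFs, and for Elovl6, whose genotypes did not overlap in TE. Each window runs from 250 bases before to 50 bases after a transcription start in RefSeq (GRCm38.p6), written 5′ to 3′ on the strand of the gene. Capitals mark TCACCC, which is part of the classical sterol regulatory element, and CCAAT, each searched on both strands, so that CCAAT also appears as ATTGG. The windows are chr11:120824498-120824797 on the minus strand for Fasn, chr2:155517793-155518092 on the plus strand for Acss2, chr11:60210422-60210721 on the minus strand for Srebf1 and chr3:129532136-129532435 on the plus strand for Elovl6.
Fasn: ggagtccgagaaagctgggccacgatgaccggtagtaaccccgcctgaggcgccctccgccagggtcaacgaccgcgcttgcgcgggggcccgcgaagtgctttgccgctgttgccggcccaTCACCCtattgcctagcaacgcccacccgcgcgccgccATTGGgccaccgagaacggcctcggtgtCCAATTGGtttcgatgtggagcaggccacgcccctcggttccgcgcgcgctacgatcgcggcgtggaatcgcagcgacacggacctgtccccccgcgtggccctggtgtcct
Acss2: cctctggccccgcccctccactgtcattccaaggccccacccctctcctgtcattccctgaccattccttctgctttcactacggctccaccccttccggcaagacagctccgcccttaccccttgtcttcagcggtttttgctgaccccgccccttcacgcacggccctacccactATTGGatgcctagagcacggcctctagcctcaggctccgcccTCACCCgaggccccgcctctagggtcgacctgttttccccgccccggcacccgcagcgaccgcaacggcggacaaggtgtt
Srebf1: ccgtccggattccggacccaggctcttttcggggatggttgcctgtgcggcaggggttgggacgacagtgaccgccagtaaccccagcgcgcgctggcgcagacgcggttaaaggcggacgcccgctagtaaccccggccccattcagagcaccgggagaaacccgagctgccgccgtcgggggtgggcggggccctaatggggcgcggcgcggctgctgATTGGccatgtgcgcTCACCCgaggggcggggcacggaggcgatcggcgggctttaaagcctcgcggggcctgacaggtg
Elovl6: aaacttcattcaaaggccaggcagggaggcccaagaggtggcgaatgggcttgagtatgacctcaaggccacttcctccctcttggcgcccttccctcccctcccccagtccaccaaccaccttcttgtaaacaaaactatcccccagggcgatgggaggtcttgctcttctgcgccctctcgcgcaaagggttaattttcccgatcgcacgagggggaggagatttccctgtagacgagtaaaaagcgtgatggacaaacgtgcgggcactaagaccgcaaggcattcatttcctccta
The Fasn window held TCACCC at position -128 from the start and 3 CCAAT boxes, at positions -90, -62 and -59, the last of which overlap. The Acss2 window held TCACCC at -31 and CCAAT at -73, and the printed Srebf1 window TCACCC at -15 and CCAAT at -30. Of the 3 windows of Srebf1 only the printed one held TCACCC, while the one starting at 60222532 held CCAAT and the one starting at 60220578 neither. In the Acss2 window and in the printed Srebf1 window the match continues as TCACCCGAGG, a run chosen after the sequences were seen, which 19 of all 32851 RefSeq promoter windows (0.0578%) hold on either strand. The Elovl6 window held neither motif. Over the 9 members with an entry, 12 windows were searched, of which 4 held TCACCC and 8 held CCAAT, against 16.2% and 37.4% of all windows. The GC box GGGCGG was found in 5 of the 12, against 35.7% of all windows, with 5 copies in Acss2, 4 in Acly, 4 in the window of Me1 that starts at 86695865 on chromosome 9 and none in Fasn. A match describes letters only.

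Levels were compared between genes per kilobase (kb), with input reads divided by the exonic length and RPF reads by the coding length (GENCODE M21, GRCm38). In WT input, Scd1 (chromosome 19, 44394455 to 44407879) stood first with 4680 ± 1727 normalized reads per kb (SD, n = 3), above 99.8% of the 8994 genes tested. Elovl5 (473 ± 131), Fasn (373 ± 89.0) and Acly (347 ± 26.6) followed, and the ranges of neighbours in this trio overlapped over the 3 WT mice. Me1 (144 ± 23.4) and Srebf1 (127 ± 8.71) overlapped each other and lay above the rest. Acss2 (76.9 ± 25.9), Elovl6 (58.8 ± 23.5) and Acacb (57.3 ± 8.87) overlapped in order, and Acaca (20.0 ± 3.59) was lowest, above 54.4% of genes. Acaca is the carboxylase isoform thought of as the source of malonyl-CoA for synthesis, and Acacb the isoform at mitochondria that restrains fatty acid oxidation.

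In WT RPFs the order began in the same way, with Scd1 at 7374 ± 2416 normalized reads per kb of coding sequence, Elovl5 at 1957 ± 475, Fasn at 1162 ± 224 and Acly at 1091 ± 70.1. Fasn and Acly overlapped. Acss2 (636 ± 148) came next, before Me1 (304 ± 84.6), Elovl6 (237 ± 52.1) and Srebf1 (216 ± 9.47), which overlapped in order, and Acacb (69.3 ± 6.68) and Acaca (42.1 ± 5.26) were last. Footprints per kb over input per kb was 8.27 for Acss2, 4.14 for Elovl5, 4.03 for Elovl6, 3.14 for Acly, 3.11 for Fasn, 2.12 for Me1, 2.11 for Acaca, 1.70 for Srebf1, 1.58 for Scd1 and 1.21 for Acacb, from above 88.1% to above 12.6% of genes. The exonic length is the union over annotated transcripts (10163 bases for Acss2, of which 21.1% is its coding length of 2142), so a long minor transcript lowers the input level per kb and raises this ratio.

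KO was then compared with WT in input, in RPFs and in translation efficiency (TE, the RPF value over the input value), to ask whether loss of Mettl5 altered these enzymes at the level of mRNA or of its translation. Without a block for litter, none of the 10 genes passed an adjusted p of 0.05 in any of the 3 comparisons (Benjamini-Hochberg adjustment over all genes tested, low counts filtered out). With the replicate block of litter limma called 1, Scd1 in RPFs (adjusted p 0.0137). In input, edgeR called 0 of 10 members where 0% of the 10057 genes tested were called, and DESeq2 and limma also called 0. The adjusted p was 0.999 for all 10, and only Acss2 had an unadjusted p under 0.05, a level that 3.46% of all genes reached. In RPFs, limma called 0 of 10 where 0.489% of 8994 genes were called, and edgeR on recovered reads called 0 as well. Again only Acss2 had an unadjusted p under 0.05, against 13.4% of all genes. In TE, limma called 0 of 10 against 0% of genes, edgeR on recovered reads called 0, and 0 members had an unadjusted p under 0.05 against 4.70% of genes. The intervals are wide, so these counts do not show that the genotypes were alike. Member log2 fold changes ran from -0.25 to 0.60 in input (median 0.25, all genes 0.00), from -0.48 to 0.58 in RPFs (median 0.12, all genes -0.03) and from -0.67 to 0.25 in TE (median -0.04, all genes -0.01).

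**Figure D1:**
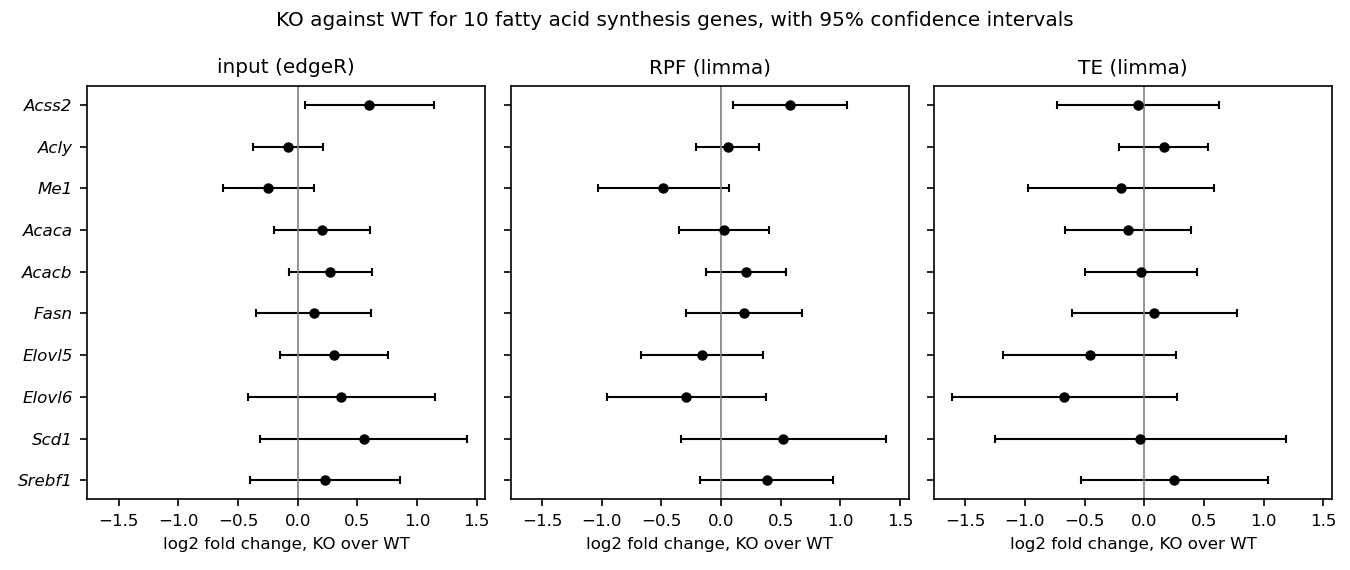
Log2 fold change of KO over WT (points) with 95% confidence intervals (bars) for each of the 10 genes in input, RPF and TE, with a grey line at 0. The interval lies above 0 for Acss2 in input and RPF, and crosses 0 for every other gene and for all 10 in TE. TE intervals are from the fit that does not pair both libraries of a mouse.

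Directions were then read litter by litter. In input 6 of 10 genes (Acss2, Acaca, Acacb, Elovl5, Elovl6 and Scd1) were higher in the KO mouse of every litter, against 11.1% of all genes, and Acly was lower in every litter, against 14.8%. In RPFs 4 of 10 were higher in all litters (Acss2, Acly, Scd1 and Srebf1; 17.4% of all genes) and Elovl6 was lower (23.8%). In TE 3 of 10 were higher (Acly, Fasn and Srebf1, against 14.7%) and 3 of 10 lower (Acaca, Elovl5 and Elovl6, against 16.4%). Both Acss2 and Scd1 were higher in all litters in input and in RPFs, which 3.45% of genes were. The members vary together from mouse to mouse, so these counts are not counts of independent genes.

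Of the enzymes that supply acetyl-CoA and NADPH, Acss2 (chromosome 2, 155517948 to 155585724) differed most. Its input value was 983, 876 and 484 normalized reads in WT mice 1, 2 and 3 and 1177, 1046 and 1260.0 in the KO mice of the same litters. All 3 KO mice lay above all 3 WT mice, which 3.65% of genes showed in input. The edgeR log2 fold change was 0.60 (SE 0.24, 95% interval 0.06 to 1.14, adjusted p 0.999). The RPF value was 1630.2, 1443 and 1012 in WT and 1997, 2019 and 1966 in KO. The KO mice again lay above all WT mice (6.97% of genes in RPFs, and 0.867% in both assays) with an SD of 26.9 normalized reads, against 317 in WT (n = 3 each). The limma log2 fold change in RPFs was 0.58 (SE 0.23, 95% interval 0.10 to 1.06, adjusted p 0.287). WT mouse 3 was the lowest in both measures, and without it the log2 fold change was 0.34 in input and 0.38 in RPFs. The TE of Acss2 was 1.66, 1.65 and 2.09 in WT and 1.70, 1.93 and 1.56 in KO, with a log2 fold change of -0.05 (95% interval -0.73 to 0.63). Without a filter on low counts edgeR called Acss2 in input (log2 fold change 0.62, adjusted p 0.0415), where 0.125% of 23941 genes were called.

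Acly (chromosome 11, 100476353 to 100528000) was among the steadiest genes of the table. It ranged from 1537 to 1994 normalized reads over the 6 mice in input and from 3354 to 3930 in RPFs, a spread on the log2 scale wider than in only 9.60% and 0.99% of genes. The genes ranked were not matched for read depth, and Acly had 947 to 2337 input reads and 3849 to 7081 RPF reads per library. The log2 fold change was -0.08 in input (95% interval -0.38 to 0.22) and 0.05 in RPFs (-0.21 to 0.32). Its TE was 1.93, 1.91 and 2.07 in WT and 2.35, 2.08 and 2.19 in KO, so the genotypes did not overlap, as in 6.09% of genes, with a log2 fold change of 0.16 (limma SE 0.18, adjusted p 0.998). Me1 (chromosome 9, 86581371 to 86695953) had RPF values of 409, 686 and 473 in WT and 528, 348 and 264 in KO. Litter 1 went up and litters 2 and 3 went down, by log2 differences of 0.37, -0.98 and -0.84. Its log2 fold change was -0.48 in RPFs (limma SE 0.26, adjusted p 0.441) and -0.25 in input (edgeR SE 0.18, adjusted p 0.999).

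The carboxylases and fatty acid synthase were not called in any comparison, which does not show that the genotypes were alike. Acaca (chromosome 11, 84129672 to 84401651) had an RPF value of 308, 325 and 254 in WT and 307, 329 and 266 in KO, within 1.05-fold of the littermate in all litters. Its RPF log2 fold change was 0.02 (95% interval -0.35 to 0.40). Acacb (chromosome 5, 114146535 to 114250761) ranged from 483 to 739 in input and from 454 to 646 in RPFs, with log2 fold changes of 0.27 (95% interval -0.08 to 0.62) and 0.21 (-0.12 to 0.54). KO over its littermate in litters 1, 2 and 3 was 1.14-, 1.00- and 1.43-fold in input and 1.18-, 0.97- and 1.36-fold in RPFs. Fasn (chromosome 11, 120805846 to 120824547) had input values of 3039, 4964 and 4263 in WT and 3793, 5795 and 3668 in KO. Its RPF values were 6989, 10348 and 8840.1 in WT and 8942, 12759 and 8364 in KO. KO was higher in litters 1 and 2 and lower in litter 3 in both measures, and the genotypes overlapped. For Fasn the log2 fold change was 0.14 in input (95% interval -0.35 to 0.62) and 0.19 in RPFs (-0.29 to 0.68). The TE of Fasn spanned 2.07 to 2.36 over the 6 mice, a spread wider than in only 0.456% of genes, not matched for read depth. This TE was higher in KO in 3 of 3 litters, by 1.03-, 1.06- and 1.10-fold.

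**Figure D2:**
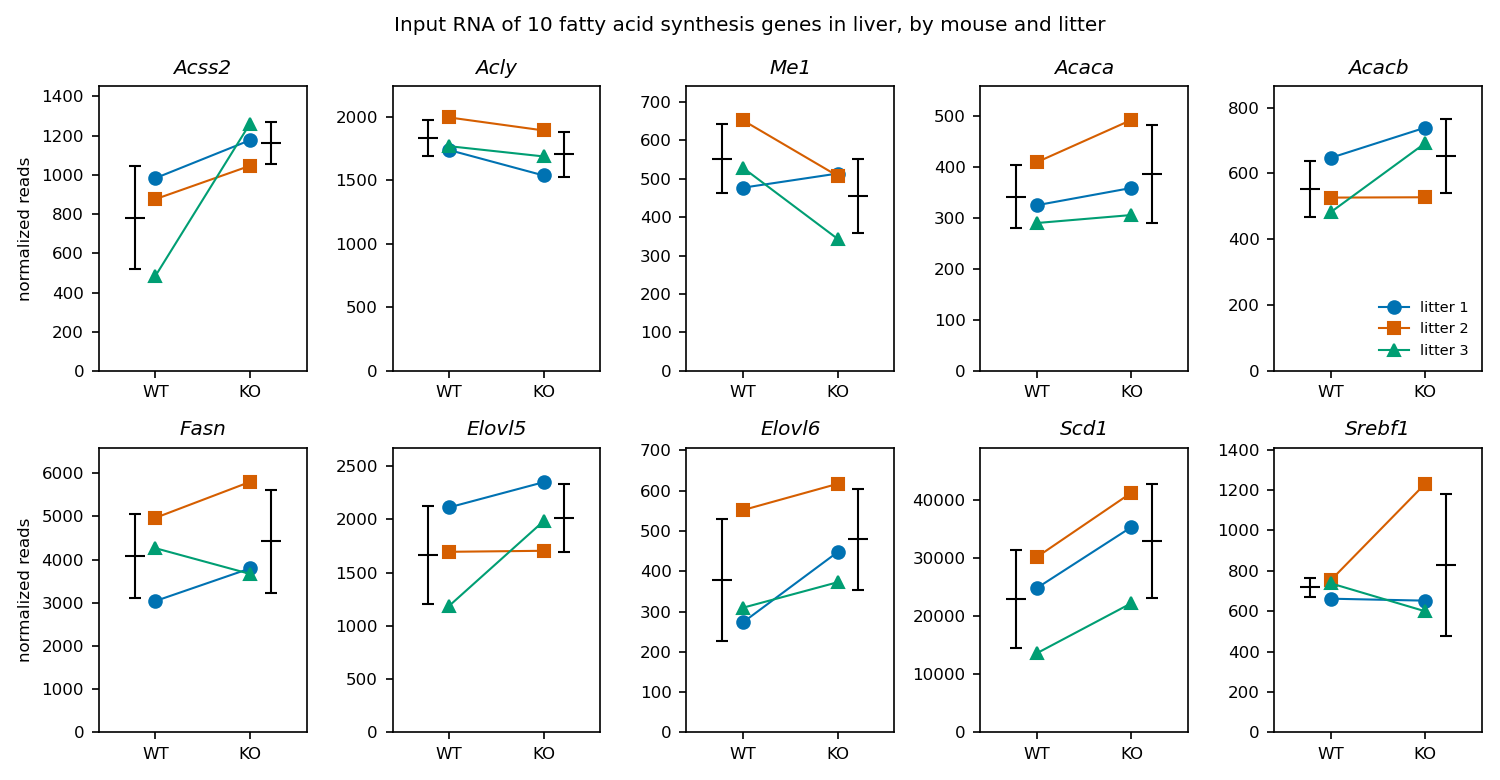
Input value (normalized reads) of each of the 10 genes in the WT and the KO mouse of every litter, with lines joining littermates and black bars giving the mean ± SD of 3 mice. In Acss2 all KO mice lie above all WT mice, in Scd1 each KO mouse lies above its littermate while the genotypes overlap, and Srebf1 stands high in KO mouse 2.

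Scd1, which makes monounsaturated fatty acids, showed the most regular difference between littermates. Its input value was 24855, 30189 and 13637 normalized reads in WT and 35334, 41253 and 22242 in KO. KO exceeded its littermate by 1.42-, 1.37- and 1.63-fold, while KO mouse 3 lay below WT mice 1 and 2. The RPF value was 8584, 9983 and 4994 in WT. In KO it was 12896, 12596 and 7809, higher by 1.50-, 1.26- and 1.56-fold. The log2 fold change was 0.55 in input (edgeR SE 0.36, adjusted p 0.999) and 0.52 in RPFs (limma SE 0.38, adjusted p 0.602). With the replicate block of litter, which compares littermates, limma called Scd1 in RPFs (SE 0.11, adjusted p 0.0137), where 3.26% of genes were called, and no other member. That fit takes all 12 libraries without a term for mouse, so both libraries of a mouse count as independent in its SE. Scd1 was also called with GC and length trends removed beside the block (0.98% of genes), and in RPF columns alone with the block, which called Acss2 as well (3.92% of genes). In input the block gave 0.58 (edgeR SE 0.17, adjusted p 0.695) and called 0 members and 0.0189% of genes. Without WT mouse 3 the fold change without the block was 0.28 in input and 0.23 in RPFs. The TE of Scd1 was 0.345, 0.331 and 0.366 in WT and 0.365, 0.305 and 0.351 in KO, with a log2 fold change of -0.03 and a 95% interval of -1.25 to 1.18 (limma), or -0.29 to 0.23 where both libraries of a mouse were paired by a block of mouse.

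Elovl6, the elongase that acts on palmitate, had log2 fold changes of unlike sign in the 2 assays, neither past the test, at 0.37 in input (95% interval -0.42 to 1.15, edgeR adjusted p 0.999) and -0.29 in RPFs (-0.96 to 0.38, limma adjusted p 0.734). Its input value (chromosome 3, 129532355 to 129638495) was 273, 552 and 309 in WT and 447, 617 and 373 in KO, higher in KO in every litter. Its RPF value was 193, 230.4 and 147 in WT and 169, 199.8 and 105 in KO, lower in KO in every litter. Of all genes 1.32% were higher in input and lower in RPFs in 3 of 3 litters. The TE was 0.705, 0.418 and 0.475 in WT and 0.378, 0.324 and 0.282 in KO, without overlap, as in 7.34% of genes. Its log2 fold change in TE was -0.67 (SE 0.43, 95% interval -1.61 to 0.27, limma adjusted p 0.998). It rests on 110 to 325 RPF reads and 149 to 680 input reads per library.

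Elovl5, the elongase of polyunsaturated fatty acids (chromosome 9, 77917364 to 77984519), was the other member with lower TE in KO without overlap. Its TE was 0.997, 1.11 and 1.08 in WT and 0.860, 0.823 and 0.650 in KO. Input was higher in KO by 1.11-, 1.01- and 1.67-fold in litters 1, 2 and 3, and RPFs differed by 0.960-, 0.745- and 1.01-fold. Its log2 fold change in TE was -0.46 (SE 0.34, 95% interval -1.18 to 0.26, limma adjusted p 0.998). With the block of mouse, the limma unadjusted p was 0.00479 for Elovl5 and 0.00356 for Elovl6, and the adjusted p was 0.379 and 0.376. An unadjusted p under 0.05, a looser level than these values, was reached by 8.61% of genes in that fit. The block called 0 genes of 8994 in TE.

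**Figure D3:**
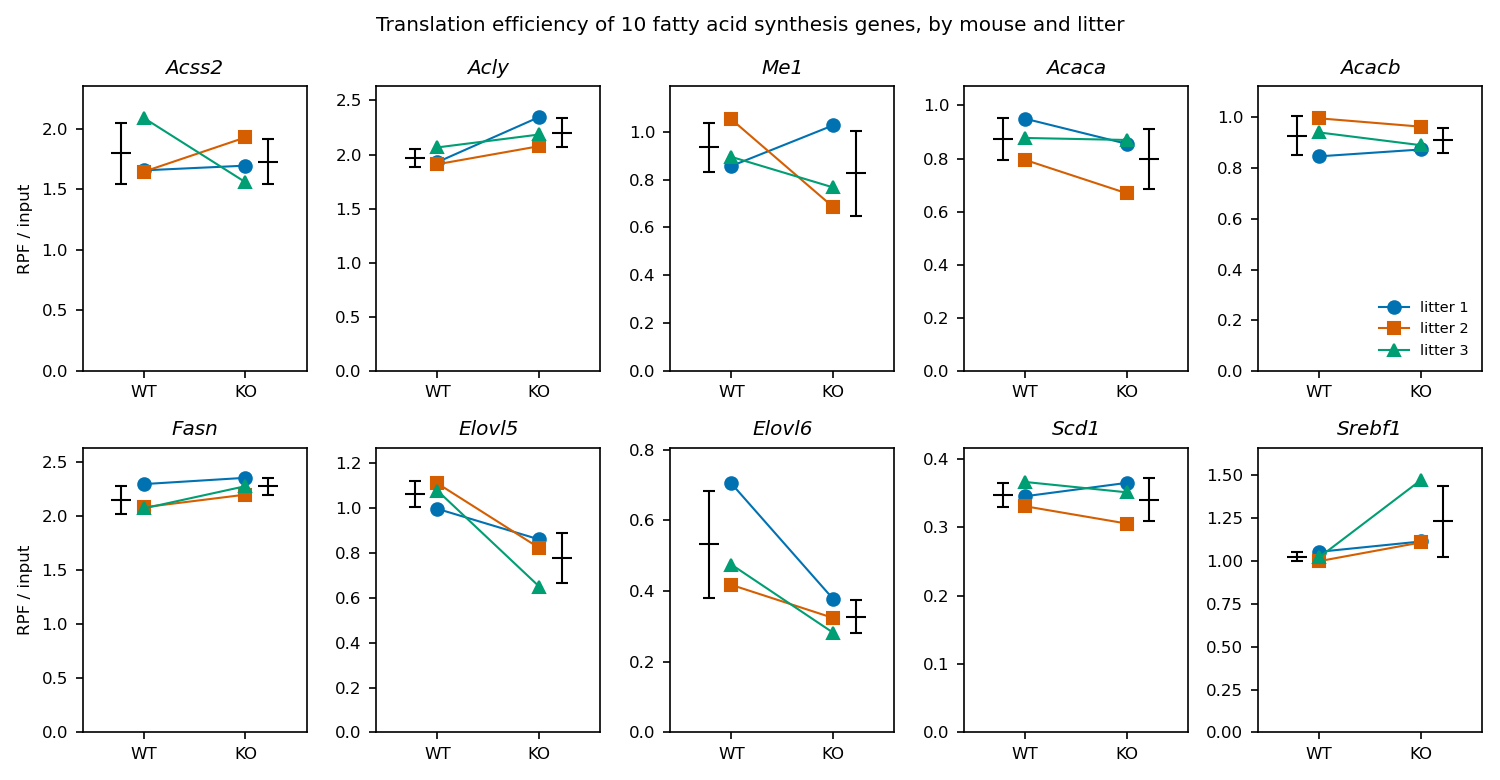
Translation efficiency (RPF value over input value, no unit) of each of the 10 genes in the WT and KO mouse of every litter, with lines joining littermates and black bars giving the mean ± SD of 3 mice. KO lies below WT without overlap in Elovl5 and Elovl6 and above it in Acly and Srebf1.

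Srebf1 (chromosome 11, 60199089 to 60222581) had input values of 662, 754 and 738 in WT and 652, 1232 and 599.6 in KO. Its RPF values were 698, 753 and 754 in WT and 727, 1366 and 883 in KO. KO mouse 2 stood far above the other 5 in both measures, and the other KO mice lay below all WT mice in input. The log2 fold change was 0.23 in input (edgeR SE 0.27, adjusted p 0.999) and 0.38 in RPFs (limma SE 0.26, adjusted p 0.552). Without KO mouse 2 it was -0.16 and 0.13. TE was higher in KO in every litter and without overlap (6.09% of genes), at 1.05, 0.999 and 1.02 in WT and 1.11, 1.11 and 1.47 in KO. The log2 fold change in TE was 0.25 (limma SE 0.36, adjusted p 0.998). The files do not separate the transcripts of SREBP-1a and SREBP-1c, which start at different promoters.

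**Figure D4:**
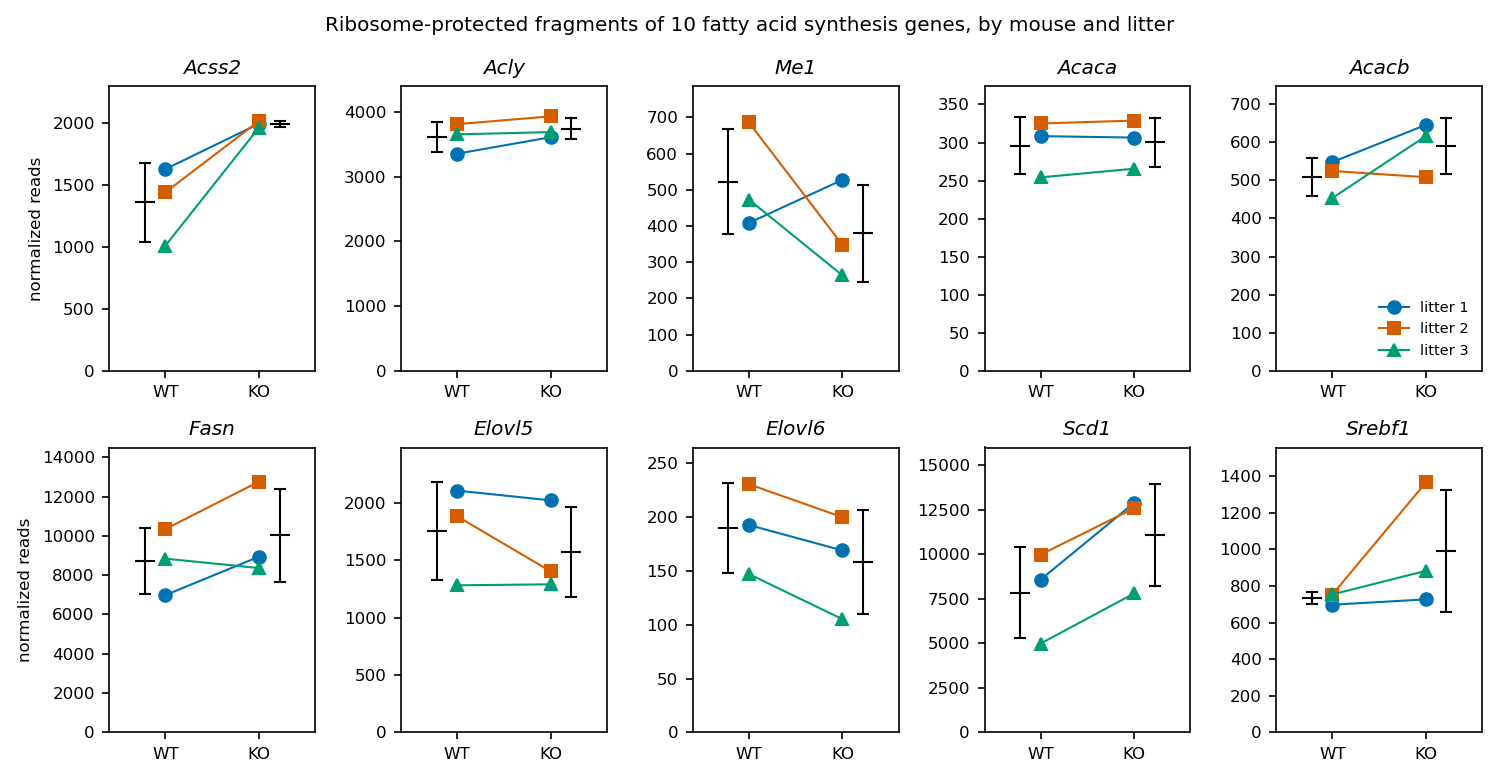
RPF value (normalized reads) of each of the 10 genes in the WT and the KO mouse of every litter, with lines joining littermates and black bars giving the mean ± SD of 3 mice. KO lies above WT without overlap in Acss2, each KO mouse lies above its littermate in Scd1 and below it in Elovl6, and litters 1 and 2 go opposite ways in Me1.

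Differences between litters were larger than those between genotypes for most members. On the log2 scale, litter took a median of 63.6% of the sum of squares over 6 mice in input and genotype 21.5%, against medians of 42.2% and 11.4% over 8994 genes. In RPFs the member medians were 70.2% and 23.2%, against 38.5% and 20.8%. With 3 litters of 2 mice, litter has more degrees of freedom than genotype and takes a larger share by construction. The litter share exceeded the genotype share in 9 of 10 members in input and 7 of 10 in RPFs. In RPFs it was 98.2% for Acaca, 83.5% for Elovl5 and 80.6% for Elovl6. Acss2 was the exception in input, with 48.4% for genotype and 17.7% for litter. For Scd1, genotype and litter together left 1.12% of the sum of squares in input and 2.09% in RPFs.

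**Figure D5:**
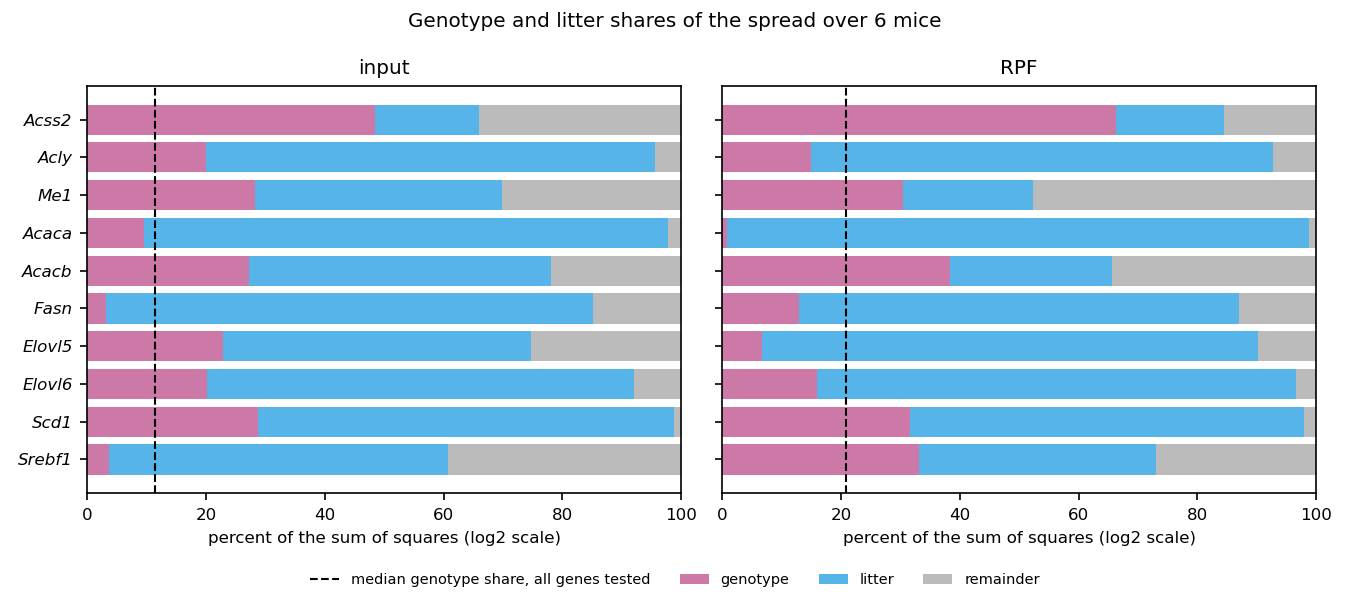
Shares of the sum of squares of log2 values over 6 mice taken by genotype, litter and the remainder (percent) for each of the 10 genes in input and RPF, with a dashed line at the median genotype share over all genes tested. Genotype takes more than litter in input for Acss2 alone.

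With every member centred on its own mean, the mean over the 10 genes in input was -0.11, 0.13 and -0.34 in WT mice 1, 2 and 3 and 0.11, 0.29 and -0.09 in KO mice 1, 2 and 3. In RPFs it was -0.03, 0.14 and -0.27 in WT and 0.14, 0.18 and -0.17 in KO. KO mouse 2 was highest for 5 of 10 genes in either measure, and WT mouse 3 lowest for 5 of 10 in either measure. KO was the higher mouse of each litter in both measures by this mean, and mice of different litters overlapped. The spread over the 6 mice exceeded that of the median gene in 8 of 10 members in input and 7 of 10 in RPFs. In TE it did so in 1 of 10, with a median SD of 0.167 against 0.335 over all genes on the log2 scale. The genes compared were not matched for read depth. Members lay at a median percentile of 90.8 in input and 87.4 in RPFs by level per kb, so the smaller TE spread cannot be read as particular to them.

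Of 44 other genes of the pathway, in 4 lists (precursor supply, NADPH supply, elongation and desaturation, and control of lipogenesis), edgeR called 0 of 44 in input and limma 0 of 43 in RPFs and 0 of 43 in TE. DESeq2 in input and edgeR on recovered reads in RPFs and TE also called 0. An unadjusted p under 0.05 was reached by 1 of 44 in input (3.46% of all genes), 11 of 43 in RPFs (6 higher and 5 lower, against 13.4% of all genes) and 2 of 43 in TE (4.70% of all genes). Closest in RPFs was Hsd17b12, the ketoacyl reductase of the elongation cycle, at 1513, 1788 and 1420.4 in WT and 1033, 1102 and 994 in KO. Hsd17b12 was lower in KO in every litter, as were 23.8% of all genes in RPFs. Its log2 fold change was -0.59 (limma SE 0.13, adjusted p 0.0518). Hsd17b12 was the 1 gene of the 43 under an adjusted p of 0.1 (1.6% of all genes), and the 1 called over genes averaging at least 50 in both assays (1.25% of genes). With the replicate block of litter limma called Hsd17b12 (adjusted p 0.0120) and Prkaa2 (log2 fold change -0.53, adjusted p 0.0324), where 3.26% of all genes were called. Prkaa2 encodes a catalytic subunit of AMPK, which phosphorylates and inhibits the carboxylases. With GC and length trends removed beside the block, 0 of 43 were called, and the adjusted p was 0.134 for Hsd17b12 and 0.124 for Prkaa2. Prkaa2 had RPF values of 343, 266 and 244 in WT and 238, 197 and 156 in KO. Without KO mouse 1, 4 genes were called, Hsd17b12, Prkaa2 and Elovl1 lower and Scap higher, where 2.52% of genes were called.

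Srebf2, the paralogue of Srebf1 that drives cholesterol synthesis, had the only unadjusted p under 0.05 of these lists in input (0.0153). Its input values were 216, 232 and 193 in WT and 278, 264 and 288 in KO, without overlap, as in 3.65% of genes. The log2 fold change in input was 0.40 (edgeR SE 0.15, adjusted p 0.999). In RPFs it was 165.5, 177 and 128 in WT and 189.8, 220.1 and 250.4 in KO, with a log2 fold change of 0.49 (limma SE 0.16, adjusted p 0.172). Of the proteins that hold or escort SREBPs, Insig1 differed by -0.05 in input and 0.14 in RPFs, Insig2 by -0.11 and -0.35, and Scap by 0.14 and 0.58. The RPF intervals at 95% were -0.20 to 0.48 for Insig1, -0.67 to -0.04 for Insig2 and 0.09 to 1.06 for Scap. The limma adjusted p in RPFs was 0.753 for Insig1, 0.319 for Insig2 and 0.289 for Scap, so none was called in that fit. Insig2 and Scap had an unadjusted p under 0.05, as did 13.4% of all genes in RPFs.

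The desaturase Fads1 had RPF values of 1150.1, 976 and 1022 in WT and 1353, 1344 and 1366 in KO, without overlap, as in 6.97% of genes. Its log2 fold change was 0.37 (limma SE 0.14, adjusted p 0.246). Fads2 differed by 0.02 (SE 0.13). Thrsp, a lipogenic protein controlled by thyroid hormone, varied by litter, with input values of 415, 1179 and 768 in WT and 394, 1406 and 544 in KO. Its log2 fold change was 0.003 in input (edgeR adjusted p 0.999) and -0.40 in RPFs (limma adjusted p 0.840). The Thrsp partner Mid1ip1, which helps carboxylase to polymerize, had RPF values of 100.2, 103 and 85.1 in WT and 129, 104.5 and 108 in KO, without overlap (6.97% of genes). For Mid1ip1 the log2 fold change was 0.24 in RPFs (limma adjusted p 0.655) and -0.10 in input (edgeR adjusted p 0.999). The carbohydrate-sensing factor Mlxipl (ChREBP) differed by 0.05 in input and -0.0020 in RPFs, its target Pklr by -0.09 and 0.06, and the citrate carrier Slc25a1 by 0.01 and 0.19, all as log2 fold changes that did not pass the tests.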

How the data were processed

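Input was tested on the deposited counts, which are whole and not normalized. To make them the authors used BBDuk for trimming, STAR 2.7.3a for alignment (mm10) and featureCounts for unique pairs over exons by strand (version 1.6.0 per the labels, 2.0.3 per the file header). For RPFs the authors used read 1, removed rRNA reads and ran RiboToolkit without removing duplicates. The signal in the deposited table of 12 columns is reads divided by a single factor per library, with no gene length in it. In each column 100% of values were whole multiples of 1 read (tolerance 0.01), and how the factors were set is not given in the sources used here. Columns of the authors' own comparisons were not used, and 0 value columns lacked a sample.

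Input was fitted with edgeR 4.0.16 (TMM, filterByExpr, robust quasi-likelihood) in R 4.3.3. RPF and TE were fitted with limma 3.58.1 (trend, robust) on log2(value + 1). Genes needed a mean of 10 or more in both assays, with the 4 groups in a single model. Neither that model nor its version with the replicate block of litter has a term for mouse. Fold changes on that scale are understated for low genes. Mice of a litter carry the same number in the labels, so they are paired. Deviations from group means correlated across genes between littermates at 0.0816, 0.127 and 0.100 in input and 0.242, 0.144 and 0.195 in RPFs. No litter term is stated in the methods, so fits without the block come first. Non-overlap and direction per litter were read from the normalized values. Intervals cover the spread between mice. Members, gene lists and tests were chosen with earlier results of these data known. The text names the members, Mettl5, pathway genes that passed a test, pathway genes listed by name, of which 1 is not reported here, and 5 genes of like pattern; Srebf2, Hsd17b12, Prkaa2 and Elovl1 were named after their values were seen. Fits were tested on simulated data. Alternatives were RLE, DESeq2 1.42.0, other filters and pseudocounts, centred columns, GC and length trends, blocks of litter and of mouse, edgeR on recovered reads and leaving out each mouse.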

Additional observations from a re-analysis of the deposited data

How the results depend on the processing

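Of 624 values under alternatives, 595 kept their direction and side of the threshold. In input, 0 members were called except without a count filter, where 1 (Acss2) was. In RPFs the count of members called was 1 with the replicate block of litter (Scd1), 1 with GC and length trends removed together with the block (Scd1, log2 fold change 0.46, limma adjusted p 0.0395), and 2 with the block in RPF columns alone (Acss2 and Scd1, limma adjusted p 0.0225 each), a fit chosen after seeing the data. The block changed no other call of a member. Pathway genes called in RPFs were 1 at an adjusted p under 0.1 (1.6% of all genes) and 1 with a mean of at least 50 (Hsd17b12, 1.25%). The block called 2 (Hsd17b12 and Prkaa2, 3.26% of all genes), and the block in RPF columns alone called 3 (3.92%). With GC and length trends removed beside the block 0 were called (0.98% of all genes), and 0 with the GC trend removed alone. Leaving out a mouse gave 0 to 4, with 4 without KO mouse 1 (2.52% of all genes). In TE 0 members and 0 pathway genes were called in every fit. Directions turned for uncalled genes. With GC and length trends removed and the block, Acly in RPFs was -0.021, Fasn in RPFs -0.053 and Fasn in TE -0.15, and Fasn in TE was -0.074 with the GC trend removed. Leaving out a mouse gave ranges of -0.10 to 0.30 for Fasn and -0.16 to 0.41 for Srebf1 in input, -0.081 to 0.11 for Acaca in RPFs, and -0.135 to 0.060 for Acss2, -0.092 to 0.026 for Acacb and -0.084 to 0.044 for Scd1 in TE. Where a cause is not given by the fit itself, it was not tested. With 3 mice a genotype, intervals in the main TE fit reach past a 2-fold change for Elovl5, Elovl6, Scd1 and Srebf1. That fit does not pair both libraries of a mouse. With the block of mouse, which does, the Scd1 interval stayed within a 2-fold change.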

Other observations

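Among 5028 genes whose mean reached 50 in both assays, the 5 non-members whose input values were most like the mean of the 10 members over the 6 mice were Acss3 (Pearson r 0.99), Gjb2 (0.98), Hpgd (0.96), Afg3l2 (0.96) and Bckdhb (0.96). Acss3 encodes a mitochondrial acyl-CoA synthetase and Bckdhb a subunit of the branched-chain keto acid dehydrogenase. Acss3 had input values of 93.6, 149 and 70.8 in WT and 123, 179 and 102 in KO. The order of the mice was like that of Elovl6 and Scd1, with both mice of litter 2 high. In RPFs the r was 0.88 for Acss3, 0.79 for Hpgd, 0.49 for Bckdhb, 0.32 for Gjb2 and -0.26 for Afg3l2. The points are 6 mice that share litters, and the genes were picked for their r, so it is a description with no test.

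Genes that fasting induces in liver varied between mice of either genotype. Igfbp1, which insulin represses, had input values of 334, 323 and 522 in WT and 1598, 331 and 835 in KO, so KO mice 1 and 3 were high and KO mouse 2 was not. KO mouse 2 was the mouse with the highest input values of Srebf1 and Fasn. G6pc was 2097, 1663 and 3903 in WT and 4294, 2618 and 4237 in KO, and Pck1 6101, 9617 and 13992 in WT and 7231, 13572 and 13336 in KO. The summed input value of the 9 fasting genes was 13807 to 24756 normalized reads in WT and 18426 to 24310.0 in KO, so the genotypes overlapped. The feeding state of the mice is not given in the sources used here, and its part in the values was not tested. Summed input values of 4 Kupffer cell markers were 802 to 1260.2 normalized reads in WT and 727 to 1023 in KO, and of 3 sinusoidal endothelial markers 547 to 591 and 536 to 628. Of 3 cholangiocyte markers none had more than 10 counts in an input library.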
